A study of Homo sapiens with 12 samples.

Results

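KG-1 and MOLM-14, human acute myeloid leukaemia cell lines, were compared with each other after 96 h with ASLAN003, to describe how their treated states differ in granulocytic, monocytic and antigen-presenting genes. ASLAN003 blocks DHODH (dihydroorotate dehydrogenase), which sits in mitochondria and is needed to build new pyrimidines. The members are the 6 ASLAN003 libraries of the 12 RNA sequencing libraries in the series, 3 of KG-1 and 3 of MOLM-14, chosen by their labels. The other 6 libraries, 3 per line after 96 h with the solvent DMSO, give the difference between the lines without the drug. The culture medium was RPMI with serum, and no ASLAN003 dose was found in the sources. Each line stands for 1 leukaemia, so every difference is one between these 2 lines, and the triplicates are not said to be separate cultures. The p-values therefore weigh differences against a spread between libraries that may be technical. A gene was tested when it reached at least 1 FPKM in at least 3 of the 6 ASLAN003 libraries, which held for 12975 of 13881 genes. FPKM is the fragment count of a gene scaled to its length and to the library's total.

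Differentiation of myeloid leukaemia cells can run towards neutrophils or towards monocytes and dendritic cells. Neutrophil precursors make azurophil (primary) granule proteins first, then specific and gelatinase granule proteins, and last the chemotactic and Fc receptors and the phagocyte oxidase of the mature cell. Monocytes share the oxidase and many receptors with neutrophils, and add lysozyme, scavenger receptors and, under the transactivator CIITA, the MHC class II molecules that show peptides to CD4 T cells. CEBPE drives the later neutrophil steps, IRF8 favours monocytes and dendritic cells, and HOXA9 with MEIS1 holds cells in a progenitor state.

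The labels were set against defining markers. CD34, a progenitor marker for which KG-1 is known, was listed at no more than 0.17 FPKM in the ASLAN003 libraries and 0.12 FPKM in the DMSO libraries, and was not tested. HLA-DRA, also known from KG-1, stood at 0.15 to 1.78 FPKM in the DMSO libraries labelled KG-1 and 1.87 to 5.11 FPKM in those labelled MOLM-14. FGFR1, the gene of a fibroblast growth factor receptor of which KG-1 is known to carry a fusion, stood at 4.26, 3.91 and 3.67 FPKM in KG-1 and 50.5, 49.4 and 49.6 FPKM in MOLM-14 under ASLAN003. These 3 markers go against what is known of KG-1, and the identity of the line was not tested, so the name KG-1 stands for the libraries so labelled. MOLM-14 is known for a rearranged KMT2A gene with high HOXA9, and for its dependence on the receptor FLT3. HOXA9 stood at 68.9, 67.3 and 72.6 FPKM in MOLM-14 against 13.2, 11.5 and 9.88 FPKM in KG-1, and FLT3 at 118, 118 and 114 against 33.9, 33.5 and 35.8 FPKM. Markers of other blood lineages were mixed. CD3D of T cells and HDC of basophils were listed at no more than 0.18 and 0.2 FPKM in the ASLAN003 libraries. The 4 tested of 28 lymphoid genes, in contrast, summed to 45.5 to 50.3 FPKM in KG-1 and 104 to 149 FPKM in MOLM-14. The 2 tested of 18 basophil, mast cell and eosinophil genes summed to 89.9 to 271 FPKM in KG-1 and 9.63 to 17.3 FPKM in MOLM-14, and the 4 tested of 31 erythroid and megakaryocyte genes to 146 to 164 and 21.5 to 37.6 FPKM. Their part in the results was not tested.

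Each library held an estimated 17950000 to 18750000 fragments, read from the step that 1 fragment makes in the FPKM of low genes. This left 75.0% to 83.8% of the low values within 0.15 fragments of a whole number, where evenly spread values would give 30%. The total was chosen for the best fit to whole numbers on these same 97 to 148 values per library. The 30% holds without such a choice, so it is a loose comparison. The median SD of a gene between replicates, in log2(FPKM + 1), was 0.15 in KG-1 and 0.27 in MOLM-14 under ASLAN003, against 0.13 and 0.17 in DMSO. The 3 MOLM-14 ASLAN003 libraries lay further from one another than those of KG-1, with a lowest correlation across genes within the group of 0.949 against 0.979. On the second principal component of the 6 libraries (9.17% of the variance, after 78.9% for the component that separates the lines) replicate 1 of MOLM-14 lay at -41.6, against 32.5 and 6.54 for its replicates. On the third (6.53%) replicate 3 lay at -36.1, against 12.2 and 23.1. Ribosomal protein genes took 15.5% to 16.6% of the listed FPKM in KG-1 and 22.9% to 28.1% in MOLM-14, and FPKM is relative to the whole library.

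Of the 12975 genes, 5897 (45.4%) differed between the lines under ASLAN003 (limma, Benjamini-Hochberg adjusted p under 0.05), 3071 (23.7%) higher in KG-1 and 2826 (21.8%) higher in MOLM-14. These shares are the background for every ASLAN003 count of list members that follows. A gene that is high in 1 line and near 0 in the other can pass the filter through the high line alone, so such counts describe the tested members and support nothing beyond them. A difference of at least 2-fold on the log2(FPKM + 1) scale came with 1702 (13.1%) and 1386 (10.7%) of the genes. The 3 and 3 libraries did not overlap in 3830 genes (29.5%) higher in KG-1 and 3487 (26.9%) higher in MOLM-14. In DMSO 7405 genes (57.1%) differed, 4049 (31.2%) higher in KG-1 and 3356 (25.9%) higher in MOLM-14. These are the background shares for the DMSO counts. In simulated data with each group's spread, 49.3% of genes changed by 1 in log2(FPKM + 1) passed for ASLAN003 and 92.5% for DMSO. For changes of 0.5 it was 3% and 29.9%. The simulation changed only 200 genes, so the real shares may differ. A fall in counts from DMSO to ASLAN003 does not show that the lines came closer. A gene that did not pass may still differ. Of the 5897 genes, 4503 (76.4%) also differed in DMSO in the same direction, 110 differed in the opposite direction and 1284 did not pass in DMSO. The 4503 genes are 60.8% of the DMSO calls. The difference itself changed between DMSO and ASLAN003 for 1338 genes (10.3%), towards KG-1 for 679 (5.23%) and towards MOLM-14 for 659 (5.08%). Differences are given as KG-1 minus MOLM-14 in log2(FPKM + 1), with the SE of the fit, and such a difference understates the fold of genes with low levels. A negative difference means a higher value in MOLM-14. No difference is given where all libraries of a line are listed at 0.

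**Figure D1:**
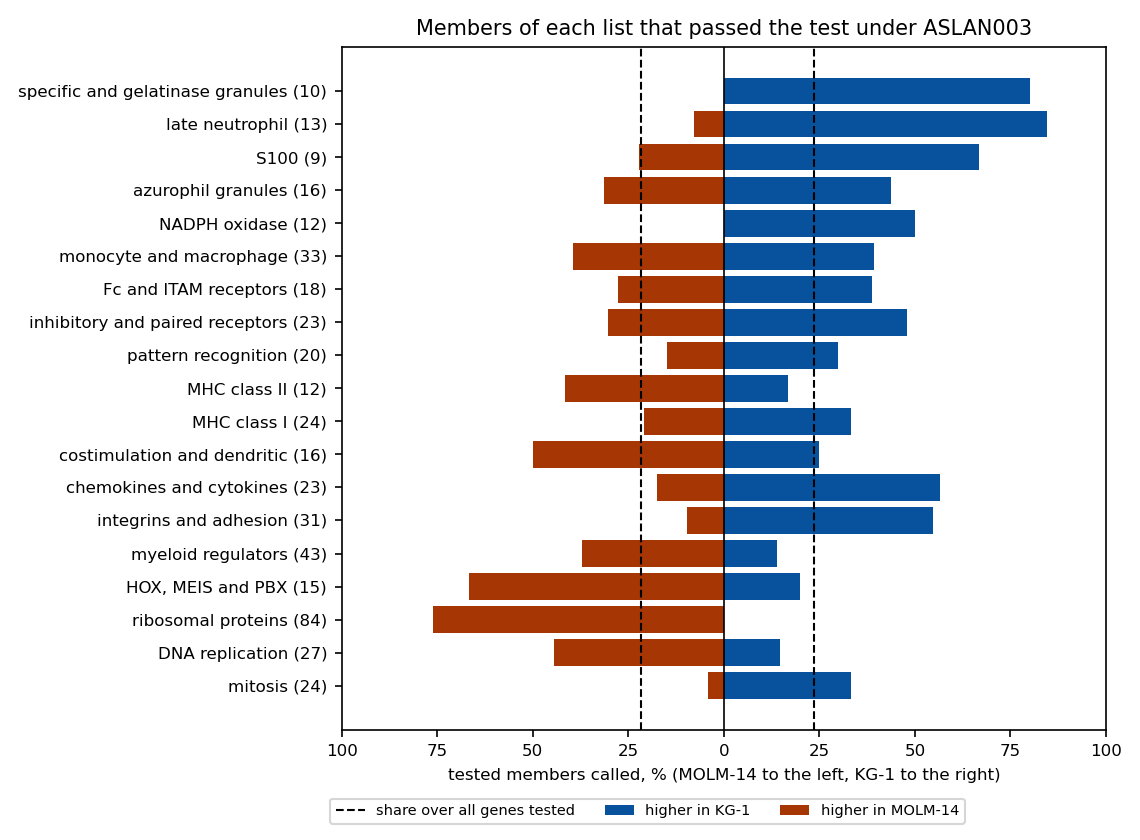
Share of the tested members of each gene list (number in brackets) that passed the test under ASLAN003, higher in KG-1 to the right and higher in MOLM-14 to the left, in percent. The dashed lines mark the shares over all 12975 genes, 23.7% and 21.8%. Late neutrophil and specific granule genes lay mostly on the KG-1 side, and HOX and ribosomal protein genes mostly on the MOLM-14 side.

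Specific and gelatinase granule genes, late neutrophil genes and the phagocyte oxidase leaned to KG-1, and azurophil granule genes were divided. Of 23 specific and gelatinase granule genes, 12 were in the table and 10 were tested, and 8 of these were higher in KG-1 and 0 in MOLM-14 (median difference 2.75 against 0.04 over all genes). Without the filter on low values the median was 1.45. In DMSO 8 of the 10 were higher in KG-1 and 2 in MOLM-14, with a median of 1.93 against 0.06 over all genes. MMP9, the gelatinase gene, stood at 464, 373 and 764 FPKM in KG-1 and 3.88, 1.64 and 1.21 FPKM in MOLM-14, a difference of 7.39 ± 0.34 (adjusted p = 2.79e-06). In DMSO it stood at 22.2 ± 6.58 and 0.65 ± 0.25 FPKM (mean ± SD), a difference of 3.78. HP encodes haptoglobin, which binds haemoglobin. It stood at 265, 272 and 379 FPKM in KG-1 and 1.26, 1.74 and 1.37 FPKM in MOLM-14 (difference 6.95 ± 0.18, adjusted p = 1.56e-07), against 20.4 ± 1.10 and 0.86 ± 0.14 FPKM in DMSO. For both genes the lowest KG-1 library lay far above the highest MOLM-14 library.

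CAMP, the gene of the antimicrobial cathelicidin, stood at 29.2, 20 and 35.3 FPKM in KG-1 and 0.78, 0 and 0 FPKM in MOLM-14 (difference 4.55 ± 0.31, adjusted p = 1.38e-05). ANXA3, an annexin gene of neutrophil granules, stood at 9.16, 15.6 and 12.8 FPKM in KG-1 and was listed at 0 in all 3 MOLM-14 libraries (adjusted p = 1.12e-05). ORM1, the gene of the acute phase protein orosomucoid, stood at 83.5, 71.0 and 137 FPKM in KG-1 and 1.59, 2.47 and 2.21 FPKM in MOLM-14 (difference 4.94 ± 0.25, adjusted p = 4.05e-06), and here the difference in DMSO was larger, 7.16. CHI3L1, a chitinase-like gene, was high in both lines, with 809, 797 and 1239.8 FPKM in KG-1 and 339, 236 and 247 FPKM in MOLM-14 (difference 1.78 ± 0.21, adjusted p = 0.000264). The protease inhibitor gene SLPI differed by 1.13 ± 0.21 (adjusted p = 0.00293). PTX3, a pentraxin gene, differed by 0.79 ± 0.26 (adjusted p = 0.0345) and did not pass without KG-1 replicate 2 or 3 or MOLM-14 replicate 2 or 3 (adjusted p from 0.0555 to 0.121). QPCT and MMP25 did not pass (adjusted p = 0.0552 and 0.0856), and replicate 1 of MOLM-14 overlapped the KG-1 libraries in both. Without that library all 10 tested genes were higher in KG-1. LTF, LCN2 and CEACAM8, which define specific granules, were not among the genes of the table used here, and the highest value of CEACAM6 was 0.13 FPKM.

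All 13 late neutrophil genes in the table (of 28 on the list) were tested, and 11 were higher in KG-1 and 1 in MOLM-14 (median 2.30). In DMSO the counts were 7 and 0 (median 0.82). Under ASLAN003 they were 9 and 0 without KG-1 replicate 2, or without MOLM-14 replicate 2 or 3. FCAR, the Fc receptor gene for immunoglobulin A (ENSG00000186431.18, GRCh38 chromosome 19, 54874248 to 54890472, plus strand), stood at 84.7, 93.7 and 104 FPKM in KG-1 and was listed at 0 in every MOLM-14 library (adjusted p = 1.56e-07). The formyl peptide receptor genes FPR1 and FPR2, which guide neutrophils to bacteria, showed the same separation. FPR1 stood at 22.0, 17.2 and 37.6 FPKM in KG-1 and 0, 0 and 0.19 FPKM in MOLM-14 (difference 4.58 ± 0.29, adjusted p = 1.12e-05). FPR2 stood at 31.3, 29.8 and 31.6 FPKM in KG-1 and 0, 0 and 0.15 FPKM in MOLM-14 (difference 4.93 ± 0.19, adjusted p = 1.07e-06). In DMSO neither exceeded 1.81 FPKM in any library.

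PADI4, whose enzyme citrullinates histones in neutrophils, stood at 195, 177 and 280.0 FPKM in KG-1 and 4.01, 0.65 and 2.04 FPKM in MOLM-14 (difference 6.19 ± 0.37, adjusted p = 8.19e-06). MNDA, a nuclear protein gene of myeloid cells, stood at 267, 289.9 and 393 FPKM in KG-1 and 26.5, 20.3 and 24.3 FPKM in MOLM-14 (difference 3.67 ± 0.17, adjusted p = 3.03e-06). Smaller differences in the same direction were those of MGAM (2.30 ± 0.31), TNFRSF10C, a decoy receptor gene (2.79 ± 0.39), LRG1 (1.94 ± 0.21) and BST1 (1.38 ± 0.27), with adjusted p of at most 0.00336. CXCR2, a receptor gene for interleukin-8, and CR1, a complement receptor gene, passed narrowly (adjusted p = 0.0427 and 0.0474). CXCR2 was lost without KG-1 replicate 1, 2 or 3 or MOLM-14 replicate 2 or 3 (adjusted p from 0.0663 to 0.124), and CR1 was lost without KG-1 replicate 1, 2 or 3 or MOLM-14 replicate 2 or 3 (adjusted p from 0.0519 to 0.159). TREM1, an activating receptor gene, was the 1 gene higher in MOLM-14, at 4.09, 7.95 and 7.32 against 2.15, 0.77 and 3.25 FPKM (difference -1.33 ± 0.36, adjusted p = 0.0176), and was lost without KG-1 replicate 2 or MOLM-14 replicate 2 or 3 (adjusted p from 0.051 to 0.0584). CSF3R, the receptor gene for granulocyte colony-stimulating factor, stood at 92.2, 87.6 and 115 FPKM in KG-1 and 119, 64.2 and 66.4 FPKM in MOLM-14 and did not pass (difference 0.29 ± 0.24, adjusted p = 0.354).

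**Figure D2:**
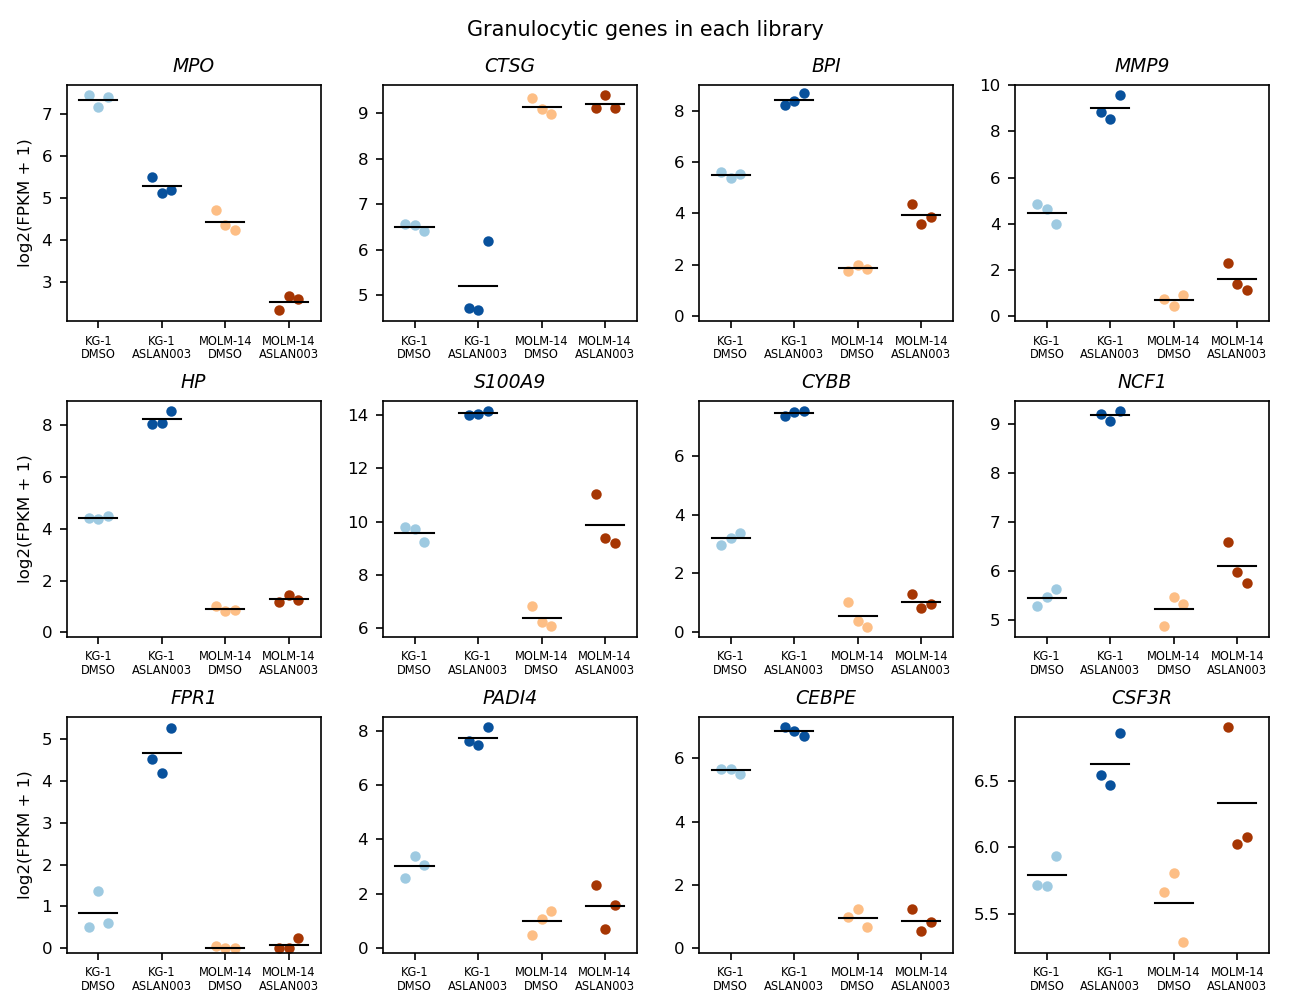
Level of 12 granulocytic genes in every library, in log2(FPKM + 1), with a scale of its own in each panel. Points are replicates 1 to 3 from left to right in each of the 4 groups, and the bar is their mean. The KG-1 ASLAN003 libraries lie above all others for BPI, MMP9, HP, S100A9, CYBB, NCF1, FPR1, PADI4 and CEBPE. CTSG is highest in MOLM-14, and CSF3R overlaps between the treated lines.

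Azurophil granule genes were divided between the lines. Of the 19 on the list, 16 were tested, 7 were higher in KG-1 and 5 in MOLM-14 (median 0.34). In DMSO the counts were 8 and 4 (median 0.34). BPI, the gene of a bactericidal protein, stood at 297, 334 and 406 FPKM in KG-1 and 19.7, 11 and 13.6 FPKM in MOLM-14 (difference 4.49 ± 0.21, adjusted p = 3.03e-06). The serine protease genes PRTN3 and ELANE were abundant in both lines and higher in KG-1, PRTN3 by 1.62 ± 0.24 (adjusted p = 0.000859) and ELANE by 0.65 ± 0.15 (adjusted p = 0.00695). MPO, the peroxidase gene, stood at 44.3, 33.8 and 35.6 FPKM in KG-1 and 4.04, 5.41 and 5.05 FPKM in MOLM-14 (difference 2.74 ± 0.18, adjusted p = 1.12e-05). Its DMSO levels were 160.3 ± 16.9 and 20.8 ± 3.79 FPKM, so MPO was lower under ASLAN003 in both lines while the difference stayed near 2.90. MS4A3, a membrane protein gene of granulocyte precursors, differed by 1.83 ± 0.20 (adjusted p = 0.000162) and SRGN, the granule proteoglycan gene, by 1.23 ± 0.25 (adjusted p = 0.00442). The defensin gene DEFA4 stood at 5.25, 7.94 and 7.89 FPKM in KG-1 and was listed at 0 in MOLM-14 (adjusted p = 2.62e-05).

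CTSG, the cathepsin G gene, ran the other way. It stood at 25.3, 24.4 and 72.2 FPKM in KG-1 and 555, 671 and 551 FPKM in MOLM-14 (difference -4.01 ± 0.37, adjusted p = 6.69e-05), and the third KG-1 replicate was well above the other two. CFD, the complement factor D gene, PRSS57, a protease gene, RNASE2, the gene of a ribonuclease, and CLEC11A, a growth factor gene, were also higher in MOLM-14, with differences of -2.06 ± 0.27, -1.62 ± 0.19, -1.26 ± 0.26 and -1.0 ± 0.17 (adjusted p of at most 0.005). RNASE2 is known from eosinophil granules and CLEC11A encodes a secreted factor, so the list is not one of azurophil granule proteins alone. In DMSO RNASE2 and CLEC11A differed by -0.10 and -0.09 and did not pass (adjusted p = 0.537 and 0.373). AZU1, RNASE3, CTSC and SERPINB1 did not pass under ASLAN003, and AZU1, the azurocidin gene, overlapped at 898, 918 and 1676 FPKM in KG-1 and 1646, 1438 and 1274 FPKM in MOLM-14.

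The S100A8 and S100A9 genes encode the subunits of calprotectin, a major protein of neutrophils and monocytes. S100A9 stood at 16394, 17055 and 18241 FPKM in KG-1 and 2102, 667 and 591 FPKM in MOLM-14 (difference 4.19 ± 0.42, adjusted p = 0.000107). S100A8 stood at 9267, 9966 and 11244 FPKM in KG-1 and 1569, 443 and 409.7 FPKM in MOLM-14 (difference 3.94 ± 0.45, adjusted p = 0.000224). MOLM-14 replicate 1 was the highest of its group for both, and without it the differences were 4.78 and 4.57. S100A12, another calgranulin gene, stood at 167, 154 and 205 FPKM in KG-1 and 11.3, 12.9 and 6.21 FPKM in MOLM-14 (difference 4.03 ± 0.25, adjusted p = 8.50e-06). Of 17 S100 genes on the list 9 were tested, and in DMSO 6 were higher in KG-1 and 2 in MOLM-14 (median 0.82). Under ASLAN003 6 were higher in KG-1 (median 1.23) and 2, S100A6 and S100A10, higher in MOLM-14. The last 2 differed by -0.54 ± 0.16 and -0.49 ± 0.18 (adjusted p = 0.0264 and 0.0494). S100A6 was lost without KG-1 replicate 1 or KG-1 replicate 2 (adjusted p = 0.102 and 0.104) and S100A10 was lost without KG-1 replicate 1 or 2 or MOLM-14 replicate 1 or 2 (adjusted p from 0.102 to 0.183).

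The phagocyte oxidase makes superoxide from NADPH, with CYBB and CYBA in the membrane and NCF1, NCF4 and RAC2 among those joining from the cytosol. All 12 genes of its list were tested, and 6 were higher in KG-1 and 0 in MOLM-14 (median 0.46), or 6 and 1 without KG-1 replicate 3. In DMSO 3 were higher in KG-1 and 4 in MOLM-14 (median -0.04). CYBB, the catalytic subunit gene, stood at 164, 178 and 182 FPKM in KG-1 and 1.49, 0.79 and 0.94 FPKM in MOLM-14 (difference 6.42 ± 0.17, adjusted p = 1.56e-07), and at 8.20 ± 1.27 and 0.50 ± 0.49 FPKM in DMSO. NCF1, the p47phox gene, stood at 582, 531 and 608 FPKM in KG-1 and 95.2, 61.5 and 53.2 FPKM in MOLM-14 (difference 3.06 ± 0.20, adjusted p = 1.28e-05), while in DMSO the lines were at 43.0 ± 5.25 and 36.8 ± 7.75 FPKM (difference 0.23, adjusted p = 0.242). NCF1 has near-identical copies, among which reads may be divided, so its level is uncertain. HVCN1, a proton channel gene, differed by 1.39 ± 0.17 (adjusted p = 0.000372), VAV1, which activates RAC, by 0.86 ± 0.12 (adjusted p = 0.000743) and RAC1 by 0.56 ± 0.13 (adjusted p = 0.00784). The partner genes CYBA, NCF4 and RAC2 differed by -0.21 ± 0.16, 0.03 ± 0.25 and 0.34 ± 0.15 and did not pass (adjusted p = 0.337, 0.938 and 0.0903). In DMSO all 3 were higher in MOLM-14, with differences of -1.02, -1.23 and -0.40 (adjusted p of at most 0.000261).

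CYBB, chosen after its values were seen, is shown with the 250 bases before its RefSeq gene start because it had the largest difference of the oxidase genes and its promoter is known for CCAAT elements. The capitals mark ATTGG or its complement CCAAT (both strands were searched), and the window is chrX:37779809-37780058, plus strand, in GRCh38.p14. It held 4 matches, whose first bases lie -230, -116, -102 and -42 bases from the start. Of 35116 such windows in the RefSeq table, 11240 (32.0%) held at least 1 match, and a match is a description, not a site of binding.
CYBB: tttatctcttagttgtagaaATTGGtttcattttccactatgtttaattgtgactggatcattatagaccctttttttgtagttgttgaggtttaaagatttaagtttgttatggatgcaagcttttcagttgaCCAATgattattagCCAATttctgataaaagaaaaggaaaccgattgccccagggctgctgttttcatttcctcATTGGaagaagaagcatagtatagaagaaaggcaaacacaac

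Monocyte and macrophage genes did not favour 1 line. Of 46 on the list 33 were tested, and 13 were higher in each line (median -0.08), as in DMSO (13 and 13, median -0.02). Without MOLM-14 replicate 1 the counts were 15 in KG-1 and 12 in MOLM-14, and the median was 0.30, while without MOLM-14 replicate 2 or 3 the counts stayed at 13 and 13 and the median was 0.06 and -0.21. Without KG-1 replicate 1, 2 or 3 the median was -0.03, -0.00082 and -0.13. In bulk RNA, fewer cells of a type and less RNA per cell cannot be told apart. The members higher in MOLM-14 included lysozyme, membrane-spanning MS4A genes and a B cell survival factor. LYZ, the lysozyme gene, stood at 783, 897 and 856 FPKM in KG-1 and 4005, 2826 and 3401 FPKM in MOLM-14 (difference -2.0 ± 0.15, adjusted p = 2.32e-05). Its DMSO levels were 91.7 ± 9.90 and 674 ± 14.4 FPKM, so that treated KG-1 lay above untreated MOLM-14 in level. TNFSF13B, the gene of the B cell activating factor BAFF, stood at 5.76, 3.01 and 2.21 FPKM in KG-1 and 103, 80.1 and 68.0 FPKM in MOLM-14 (difference -4.24 ± 0.28, adjusted p = 1.33e-05). MS4A6A, a membrane protein gene of monocytes, stood at 15.7, 16.1 and 17.8 FPKM in KG-1 and 126, 133 and 178 FPKM in MOLM-14 (difference -3.05 ± 0.16, adjusted p = 4.38e-06).

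FGL2, the gene of a fibrinogen-like protein, stood at 1.18, 0.86 and 2.15 FPKM in KG-1 and 28.1, 25.1 and 24.3 FPKM in MOLM-14 (difference -3.52 ± 0.23, adjusted p = 1.21e-05). MS4A7, MS4A4A and TNFSF13, the gene of the factor APRIL, differed by -2.30 ± 0.20, -2.03 ± 0.22 and -1.48 ± 0.26 (adjusted p of at most 0.00203). CD4, which monocytes carry, stood at 40.5, 41.4 and 50.5 FPKM in KG-1 and 107, 98.7 and 103 FPKM in MOLM-14 (difference -1.21 ± 0.13, adjusted p = 0.000159), and the scavenger receptor gene CD36 at 12.4, 12.4 and 18.5 FPKM in KG-1 and 35.3, 27.0 and 39.7 FPKM in MOLM-14 (difference -1.19 ± 0.21, adjusted p = 0.00225). For CD36 the difference in DMSO was -2.83. CX3CR1, the fractalkine receptor gene, differed by -1.19 ± 0.22 (adjusted p = 0.00256).

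Higher in KG-1 were integrin, lipoprotein and Fc receptor genes of the same list. ITGAM (CD11b), an integrin gene of neutrophils and monocytes, stood at 139.8, 133 and 170.4 FPKM in KG-1 and 28, 19.7 and 13.7 FPKM in MOLM-14 (difference 2.84 ± 0.24, adjusted p = 4.18e-05). ITGAX (CD11c) stood at 82.5, 68.5 and 105 FPKM in KG-1 and 30.2, 10.4 and 7.77 FPKM in MOLM-14 (difference 2.54 ± 0.42, adjusted p = 0.00163), and without MOLM-14 replicate 1, the highest of that line, the difference was 3.09. FCER1G, the common signalling chain of several Fc receptors, stood at 452, 483 and 495 FPKM in KG-1 and 17.2, 11.3 and 2.17 FPKM in MOLM-14 (difference 5.74 ± 0.56, adjusted p = 0.000127), and the difference was 4.99 without MOLM-14 replicate 3, the lowest. APOE, the apolipoprotein E gene, stood at 145, 127 and 245 FPKM in KG-1 and 1.81, 0.21 and 0 FPKM in MOLM-14 (difference 6.79 ± 0.40, adjusted p = 7.44e-06), and its neighbour APOC1 differed by 6.30 ± 0.50 (adjusted p = 3.16e-05). Without MOLM-14 replicate 1 the APOC1 difference was 6.96. Both genes already differed in DMSO, by 5.84 and 5.63. FCGR1A, the high-affinity immunoglobulin G receptor gene, differed by 1.28 ± 0.14 (adjusted p = 0.000184). FCN1, the ficolin gene of monocytes, stood at 3.19, 4.66 and 10.8 FPKM in KG-1 and 0.2, 0 and 0.04 FPKM in MOLM-14 (difference 2.60 ± 0.37, adjusted p = 0.000705).

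CD14, CSF1R and CD68, used to define monocytes and macrophages, did not pass. CD14, the lipopolysaccharide co-receptor gene, stood at 2.70, 2.38 and 4.93 FPKM in KG-1 and 3.98, 0.71 and 0.54 FPKM in MOLM-14 (difference 0.83 ± 0.46, adjusted p = 0.171). Its highest MOLM-14 value was again replicate 1, and without it the difference was 1.37 (adjusted p = 0.00688). CSF1R, the receptor gene for macrophage colony-stimulating factor, differed by -0.11 ± 0.33 (adjusted p = 0.801) and by 0.30 (adjusted p = 0.178) without that library. CD68 differed by 0.53 ± 0.21 (adjusted p = 0.0653) and by 0.70 (adjusted p = 0.0186) without it. CD163, a macrophage scavenger receptor gene, is not in the table used here.

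Among 18 Fc receptor and ITAM signalling genes, 7 were higher in KG-1 and 5 in MOLM-14, or 6 and 3 without KG-1 replicate 2. The counts in DMSO were 7 and 7. The kinase genes divided, with FGR higher in KG-1 by 1.91 ± 0.30 (adjusted p = 0.00112) and LYN and FYN higher in MOLM-14 with differences of -1.19 ± 0.15 and -3.29 ± 0.19 (adjusted p = 0.000356 and 7.55e-06). FYN stood at 1.17, 0.76 and 0.84 FPKM in KG-1 and 16.7, 19.7 and 16.9 FPKM in MOLM-14. FCGR2B, the inhibitory immunoglobulin G receptor gene, was higher in MOLM-14 at 25.5, 32.0 and 21.5 against 2.21, 2.09 and 8.46 FPKM (difference -2.57 ± 0.41, adjusted p = 0.00135), and FCGR2A was higher in KG-1 by 0.60 ± 0.17 (adjusted p = 0.0206) but was lost without KG-1 replicate 2 or 3 or MOLM-14 replicate 3 (adjusted p from 0.0515 to 0.0799). The FCGR2 genes are near-identical in part, so the division of reads among them is uncertain.

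Of 23 tested inhibitory and paired receptor genes, 11 were higher in KG-1 and 7 in MOLM-14, against 6 and 9 in DMSO. LILRB4, an inhibitory receptor gene of monocytic leukaemia cells, stood at 4.02, 2.67 and 4.38 FPKM in KG-1 and 113, 82.0 and 85.3 FPKM in MOLM-14 (difference -4.34 ± 0.20, adjusted p = 2.81e-06), with 1.67 ± 0.59 and 38.3 ± 4.38 FPKM in DMSO. LILRB1 differed by -2.35 ± 0.23 (adjusted p = 8.62e-05). Sialic acid receptor genes of neutrophils and monocytes lay on the KG-1 side. SIGLEC5 stood at 10.8, 8.98 and 10.1 FPKM in KG-1 and was listed at 0 in MOLM-14 (adjusted p = 7.04e-06), and no DMSO library exceeded 0.2 FPKM. SIGLEC9 and SIGLEC7 differed by 2.51 ± 0.29 and 2.74 ± 0.45 (adjusted p = 0.000239 and 0.00157). SIGLEC14, a near copy of SIGLEC5, differed by 2.03 ± 0.25 (adjusted p = 0.000341). PILRA, LILRA2 and CD52 differed by 3.21 ± 0.24, 2.49 ± 0.17 and 3.53 ± 0.23 (adjusted p of at most 2.33e-05). CD33, the sialic acid receptor gene present on most myeloid leukaemias, was higher in MOLM-14 (difference -0.71 ± 0.14, adjusted p = 0.00397).

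Among 20 tested pattern recognition genes, 6 were higher in KG-1 and 3 in MOLM-14, which is close to the background, and 5 and 2 without KG-1 replicate 2. The counts in DMSO were 3 and 9. TLR4, the lipopolysaccharide receptor gene, stood at 10.7, 10.3 and 11.8 FPKM in KG-1 and 2.43, 0.61 and 1.23 FPKM in MOLM-14 (difference 2.36 ± 0.29, adjusted p = 0.000313). NLRP12, a nucleotide-binding receptor gene, stood at 18.6, 16.3 and 22.7 FPKM in KG-1 and 3.42, 2.26 and 1.64 FPKM in MOLM-14 (difference 2.57 ± 0.24, adjusted p = 7.17e-05), while in DMSO the lines were at 0.76 ± 0.13 and 0.80 ± 0.13 FPKM. NLRC4, an inflammasome gene, differed by 2.71 ± 0.27 (adjusted p = 0.000106). CD180, a Toll-like receptor homologue gene, and NAIP, an inflammasome sensor gene, were higher in MOLM-14, with differences of -1.54 ± 0.23 and -1.47 ± 0.31 (adjusted p = 0.000931 and 0.00511). TLR2 differed by 0.16 ± 0.16 and NLRP3 by -0.31 ± 0.12, and neither passed (adjusted p = 0.455 and 0.073).

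**Figure D3:**
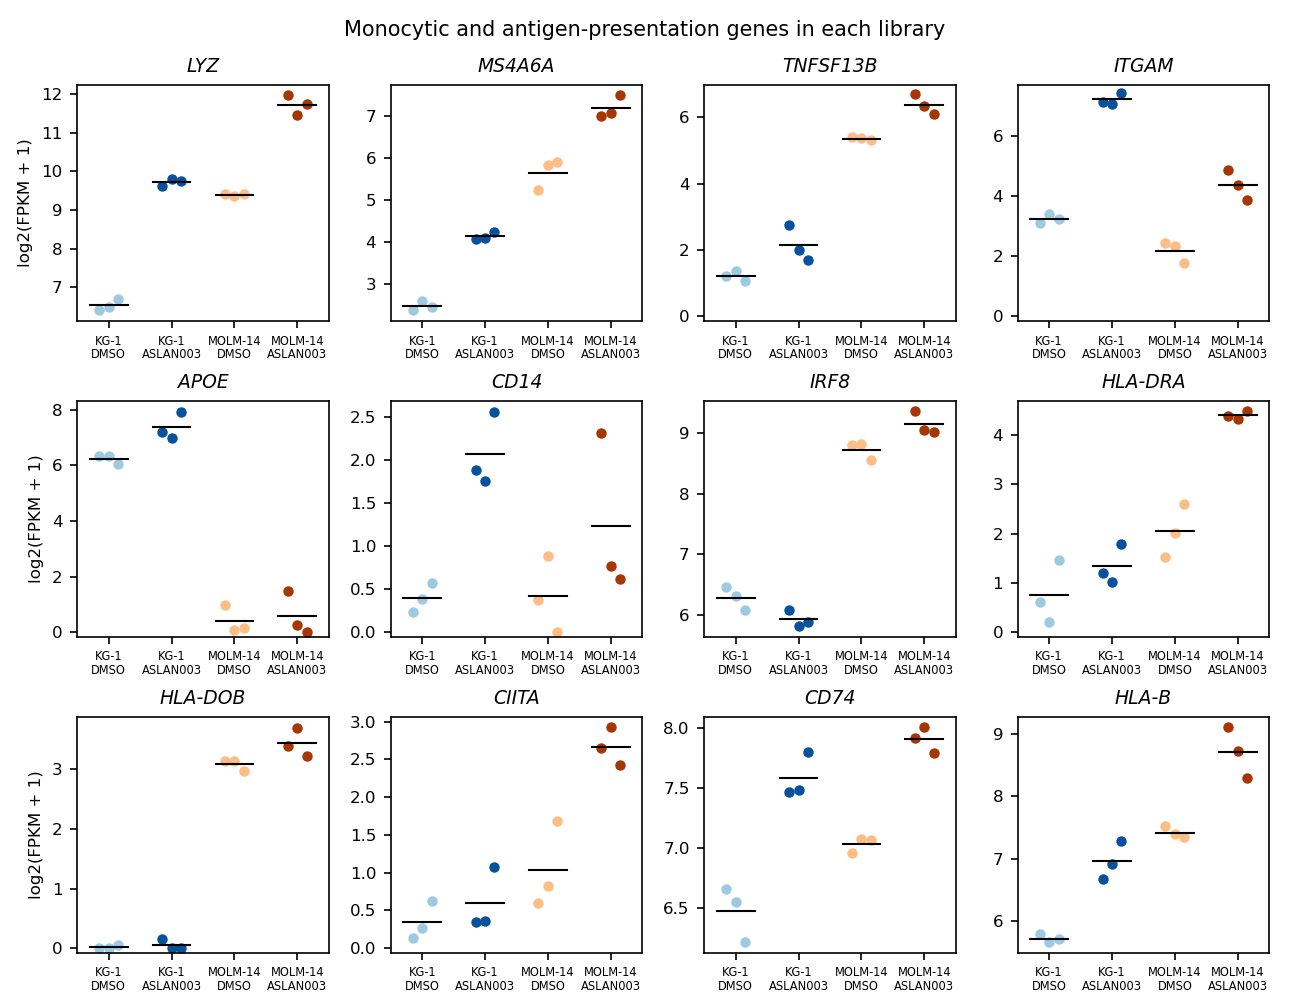
Level of 12 monocytic and antigen-presentation genes in every library, in log2(FPKM + 1), with a scale of its own in each panel. Points are replicates 1 to 3 from left to right in each of the 4 groups, and the bar is their mean. LYZ, MS4A6A, TNFSF13B, IRF8, HLA-DRA, HLA-DOB, CIITA and HLA-B are highest in MOLM-14 ASLAN003, ITGAM and APOE in KG-1, and CD14 overlaps between the treated lines.

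MHC class II chain genes and CIITA were higher in MOLM-14. Of 22 genes on the list 12 were tested, 5 higher in MOLM-14 and 2 in KG-1 (median -0.45), with 5 and 3 in DMSO. In KG-1 the count was 1 without KG-1 replicate 3, or without MOLM-14 replicate 2 or 3. HLA-DRA, the alpha chain gene of all HLA-DR molecules, stood at 1.29, 1.04 and 2.46 FPKM in KG-1 and 19.9, 19.1 and 21.5 FPKM in MOLM-14 (difference -3.06 ± 0.23, adjusted p = 2.67e-05). CIITA, the transactivator gene of the class, stood at 0.27, 0.28 and 1.11 FPKM in KG-1 and 5.29, 6.61 and 4.37 FPKM in MOLM-14 (difference -2.08 ± 0.28, adjusted p = 0.000503). In DMSO MOLM-14 had 1.87, 3.06 and 5.11 FPKM of HLA-DRA and 0.51, 0.77 and 2.22 FPKM of CIITA, and the CIITA difference did not pass there (adjusted p = 0.0775). HLA-DOB, a chain of the modulator HLA-DO, stood at 0.11, 0 and 0 FPKM in KG-1 and 9.46, 12 and 8.37 FPKM in MOLM-14 (difference -3.39 ± 0.22, adjusted p = 1.13e-05), and untreated MOLM-14 was already at 7.50 ± 0.59 FPKM. HLA-DQB1, a peptide-binding chain gene, stood at 0.83, 0.82 and 2.43 FPKM in KG-1 and 7.41, 10.3 and 11 FPKM in MOLM-14 (difference -2.21 ± 0.30, adjusted p = 0.000571). HLA-DMA, a chain of the peptide exchanger HLA-DM, differed by -0.66 ± 0.19 (adjusted p = 0.023) and was lost without KG-1 replicate 1, 2 or 3 (adjusted p from 0.0523 to 0.0976).

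The other tested genes of the pathway did not pass or were higher in KG-1. CD74, the invariant chain gene, was abundant in both lines, at 176, 178 and 222 FPKM in KG-1 and 240.3, 256 and 219.7 FPKM in MOLM-14 (difference -0.32 ± 0.13, adjusted p = 0.0827). The factors RFX5, RFXANK and RFXAP, which bind class II promoters, did not pass, with differences of -0.25 ± 0.15, 0.38 ± 0.15 and 0.41 ± 0.20. CTSS, a protease gene that trims the invariant chain, was higher in KG-1 by 0.83 ± 0.17 (adjusted p = 0.00449), and IFI30, a lysosomal thiol reductase gene, by 1.14 ± 0.39 (adjusted p = 0.0404), a call that was lost without KG-1 replicate 3 or MOLM-14 replicate 2 or 3 (adjusted p from 0.0989 to 0.124). HLA-DPA1 stayed at or under 1.82 FPKM and was not tested. HLA genes are near-identical in part and vary in sequence, so levels of single HLA genes are uncertain.

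Class II promoters share a Y box, an inverted CCAAT element, and the windows of the 4 class II genes with an entry that the text names are therefore set side by side, chosen after their values were seen. Each is the 250 bases before the RefSeq gene start in GRCh38.p14, read in the direction of the gene, and all lie on the minus strand. The windows are chr6:32817003-32817252 for HLA-DOB, chr6:32666658-32666907 for HLA-DQB1, chr6:32953098-32953347 for HLA-DMA and chr5:150412911-150413160 for CD74. Capitals again mark ATTGG or CCAAT. The first match from the gene start outwards begins -74, -64, -49 and -53 bases from the start, in that order, and the first 3 hold a further match at -98, -88 and -79. Read in the direction of the gene, the matches at -98, -88, -79 and -49 are ATTGG, the inverted form that a Y box has. Those at -74, -64 and -53 are CCAAT, so the CD74 window holds no inverted match. The windows that hold a match in either form thus include that of CD74, which did not pass, as well as those of HLA-DOB and HLA-DQB1, which did, against 32.0% of all windows.
HLA-DOB: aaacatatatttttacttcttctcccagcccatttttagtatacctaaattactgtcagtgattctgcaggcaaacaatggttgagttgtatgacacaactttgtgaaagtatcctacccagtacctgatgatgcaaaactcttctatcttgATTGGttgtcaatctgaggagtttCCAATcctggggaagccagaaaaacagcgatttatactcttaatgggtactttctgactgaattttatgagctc
HLA-DQB1: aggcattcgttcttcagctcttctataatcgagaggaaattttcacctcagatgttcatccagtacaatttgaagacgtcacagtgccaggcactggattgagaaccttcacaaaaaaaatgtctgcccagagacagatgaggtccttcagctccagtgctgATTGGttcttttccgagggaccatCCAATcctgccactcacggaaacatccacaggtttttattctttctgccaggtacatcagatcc
HLA-DMA: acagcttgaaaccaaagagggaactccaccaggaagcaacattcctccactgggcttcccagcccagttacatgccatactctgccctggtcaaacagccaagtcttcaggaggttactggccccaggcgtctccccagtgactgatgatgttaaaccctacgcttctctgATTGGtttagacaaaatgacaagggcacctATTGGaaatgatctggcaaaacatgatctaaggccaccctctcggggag
CD74: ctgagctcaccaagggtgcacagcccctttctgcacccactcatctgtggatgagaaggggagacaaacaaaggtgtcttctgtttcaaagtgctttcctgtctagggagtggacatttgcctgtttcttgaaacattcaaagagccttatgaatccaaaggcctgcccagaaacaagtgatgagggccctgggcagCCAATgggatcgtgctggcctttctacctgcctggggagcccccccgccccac

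MHC class I genes were divided. All 24 in the table were tested (of 25 on the list), 8 higher in KG-1 and 5 in MOLM-14 (median 0.14), which is close to the background. The DMSO counts were 8 and 11 (median -0.16). Without KG-1 replicate 2 the ASLAN003 counts were 3 and 4. The median was 0.24 without MOLM-14 replicate 1, 0.05 without MOLM-14 replicate 3 and 0.06 without KG-1 replicate 3. HLA-B stood at 101, 121 and 155 FPKM in KG-1 and 551, 424 and 312 FPKM in MOLM-14 (difference -1.75 ± 0.23, adjusted p = 0.000472), and HLA-C differed by -1.16 ± 0.26 (adjusted p = 0.00748). B2M, the common light chain gene, stood at 2174, 2399 and 2777 FPKM in KG-1 and 2276, 2240.1 and 2066 FPKM in MOLM-14 and did not pass (difference 0.15 ± 0.13, adjusted p = 0.359). ERAP2, which trims peptides, and PSMB10, an immunoproteasome subunit gene, were higher in MOLM-14, with differences of -2.09 ± 0.23 and -1.21 ± 0.19 (adjusted p = 0.000194 and 0.00119). The chaperone genes CALR and CANX, which help load class I molecules, were higher in KG-1 by 1.60 ± 0.18 and 1.02 ± 0.11 (adjusted p = 0.000232 and 0.000201). NLRC5, the class I transactivator gene, was higher in KG-1 by 0.82 ± 0.25 (adjusted p = 0.0256), against -0.97 in DMSO (adjusted p = 0.00399), and its call was lost without KG-1 replicate 1 or 2 or MOLM-14 replicate 2 or 3 (adjusted p from 0.0769 to 0.0967).

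Costimulation and dendritic cell genes leaned to MOLM-14, with 8 of 16 tested genes higher there and 4 higher in KG-1 (32 on the list, median -0.53), against 10 and 3 in DMSO. CADM1, an adhesion gene of cross-presenting dendritic cells, stood at 0, 0 and 0.02 FPKM in KG-1 and 13.4, 22.8 and 26.3 FPKM in MOLM-14 (difference -4.39 ± 0.27, adjusted p = 8.83e-06). NRP1, the neuropilin gene of plasmacytoid cells, stood at 0.96, 0.79 and 0.45 FPKM in KG-1 and 18.2, 14.1 and 18.2 FPKM in MOLM-14 (difference -3.37 ± 0.22, adjusted p = 1.12e-05). CD209 (DC-SIGN), a lectin gene, stood at 0.01, 0 and 0.03 FPKM in KG-1 and 9.39, 8.80 and 5.62 FPKM in MOLM-14 (difference -3.11 ± 0.24, adjusted p = 2.82e-05). ICOSLG, a costimulatory ligand gene, THBD, the thrombomodulin gene, and SIRPA differed by -1.66 ± 0.19, -1.54 ± 0.15 and -0.82 ± 0.12 (adjusted p of at most 0.000928). All 6 of these genes also differed in DMSO in the same direction.

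The costimulatory ligand CD86 and the maturation marker CD83 did not pass under ASLAN003 (difference 0.43 ± 0.20 and 0.31 ± 0.22, adjusted p = 0.113 and 0.282). CD86 stood at 11.7, 14.8 and 13.9 FPKM in KG-1 and 12.2, 7.69 and 9.71 FPKM in MOLM-14, against 0.98 ± 0.45 and 2.83 ± 0.41 FPKM in DMSO. Higher in KG-1 were CCR7, the lymph node homing receptor gene, at 10.9, 10.8 and 20.2 against 2.18, 0 and 0.42 FPKM (difference 3.12 ± 0.44, adjusted p = 0.000657), CD40 by 1.79 ± 0.26 (adjusted p = 0.000784), ZBTB46 by 1.80 ± 0.20 (adjusted p = 0.000192) and the lipid-presenting CD1D by 1.03 ± 0.19 (adjusted p = 0.00248). For CCR7 the difference in DMSO was 4.57.

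Among 43 tested myeloid regulators (56 on the list), 6 were higher in KG-1 and 16 in MOLM-14 (median -0.24), against 8 and 26 in DMSO (median -0.72). Without MOLM-14 replicate 1 the counts were 10 and 15 and the median was -0.12. CEBPE stood at 127, 117 and 103 FPKM in KG-1 and 1.36, 0.47 and 0.77 FPKM in MOLM-14 (difference 5.99 ± 0.21, adjusted p = 6.99e-07), with 48.3 ± 3.28 and 0.97 ± 0.38 FPKM in DMSO. IRF8 stood at 66.9, 55.4 and 57.9 FPKM in KG-1 and 655, 527 and 519 FPKM in MOLM-14 (difference -3.21 ± 0.14, adjusted p = 1.99e-06). RUNX2, expressed in plasmacytoid dendritic cells, stood at 0.32, 0.26 and 0.31 FPKM in KG-1 and 17.3, 9.54 and 9.17 FPKM in MOLM-14 (difference -3.27 ± 0.27, adjusted p = 3.87e-05). CEBPA, the regulator of early granulocyte commitment, was higher in MOLM-14 at 332, 308 and 311 against 136, 115 and 116 FPKM (difference -1.37 ± 0.12, adjusted p = 4.46e-05). KLF4, which promotes monocytes, differed by -1.04 ± 0.18 (adjusted p = 0.00207), ZEB2 by -1.62 ± 0.21 (adjusted p = 0.000462), VDR, the vitamin D receptor gene, by -1.53 ± 0.21 (adjusted p = 0.000542) and IRF5 by -0.79 ± 0.19 (adjusted p = 0.00879). MYC stood at 58.2, 48.1 and 72.9 FPKM in KG-1 and 129, 259 and 274 FPKM in MOLM-14 (difference -1.81 ± 0.29, adjusted p = 0.00128).

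On the KG-1 side were PPARG, the nuclear receptor gene of fat and foamy cells, by 2.70 ± 0.23 (adjusted p = 4.32e-05), ID1 by 2.21 ± 0.32 (adjusted p = 0.000788), EGR1, which promotes macrophages, by 1.2 ± 0.25 (adjusted p = 0.00478), and GFI1, a granulocyte repressor gene, by 0.45 ± 0.16 (adjusted p = 0.0453). GFI1 was lost without KG-1 replicate 1, 2 or 3 or MOLM-14 replicate 2 or 3 (adjusted p from 0.0587 to 0.159). In DMSO EGR1 was higher in MOLM-14 (difference -0.90, adjusted p = 0.0107). SPI1 (PU.1), required for both lineages, stood at 260.5, 238 and 235 FPKM in KG-1 and 228, 171 and 151 FPKM in MOLM-14 and did not pass (difference 0.43 ± 0.16, adjusted p = 0.0565). CEBPB, CEBPD, RUNX1 and MYB did not pass either, with differences from -0.19 to 0.53.

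HOXA genes, MEIS1 and their partners were tested for 15 of 26 listed genes, 10 higher in MOLM-14 and 3 in KG-1 (median -1.02). The DMSO counts were 11 and 3, with a median of -2.11. HOXA9 differed by -2.50 ± 0.15 (adjusted p = 7.17e-06) at the levels given for the check of the labels, and HOXA10 stood at 6.76, 7.28 and 8.45 FPKM in KG-1 and 45.4, 61.6 and 42.5 FPKM in MOLM-14 (difference -2.57 ± 0.18, adjusted p = 1.72e-05). HOXA3, HOXA7, HOXA11 and HOXA13 differed by -2.43 ± 0.24, -1.69 ± 0.26, -2.49 ± 0.19 and -1.59 ± 0.20 (adjusted p of at most 0.00111). MEIS1 stood at 9.29, 10.1 and 9.34 FPKM in KG-1 and 14.2, 19.2 and 19.5 FPKM in MOLM-14 (difference -0.81 ± 0.17, adjusted p = 0.00596), against a difference of -1.54 in DMSO. HOXA5 differed by -1.02 ± 0.24 under ASLAN003 and by -2.44 in DMSO. PBX3, a partner of both, stood at 43.4, 49.3 and 48.5 FPKM in KG-1 and 44.6, 48.8 and 47.2 FPKM in MOLM-14 and did not pass (difference 0.01 ± 0.12, adjusted p = 0.977). HOXB3 was higher in KG-1 at 2.67, 5.40 and 2.44 against 0.03, 0.09 and 0 FPKM (difference 2.06 ± 0.28, adjusted p = 0.000567), and PBX2 by 1.15 ± 0.19 (adjusted p = 0.00167).

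**Figure D4:**
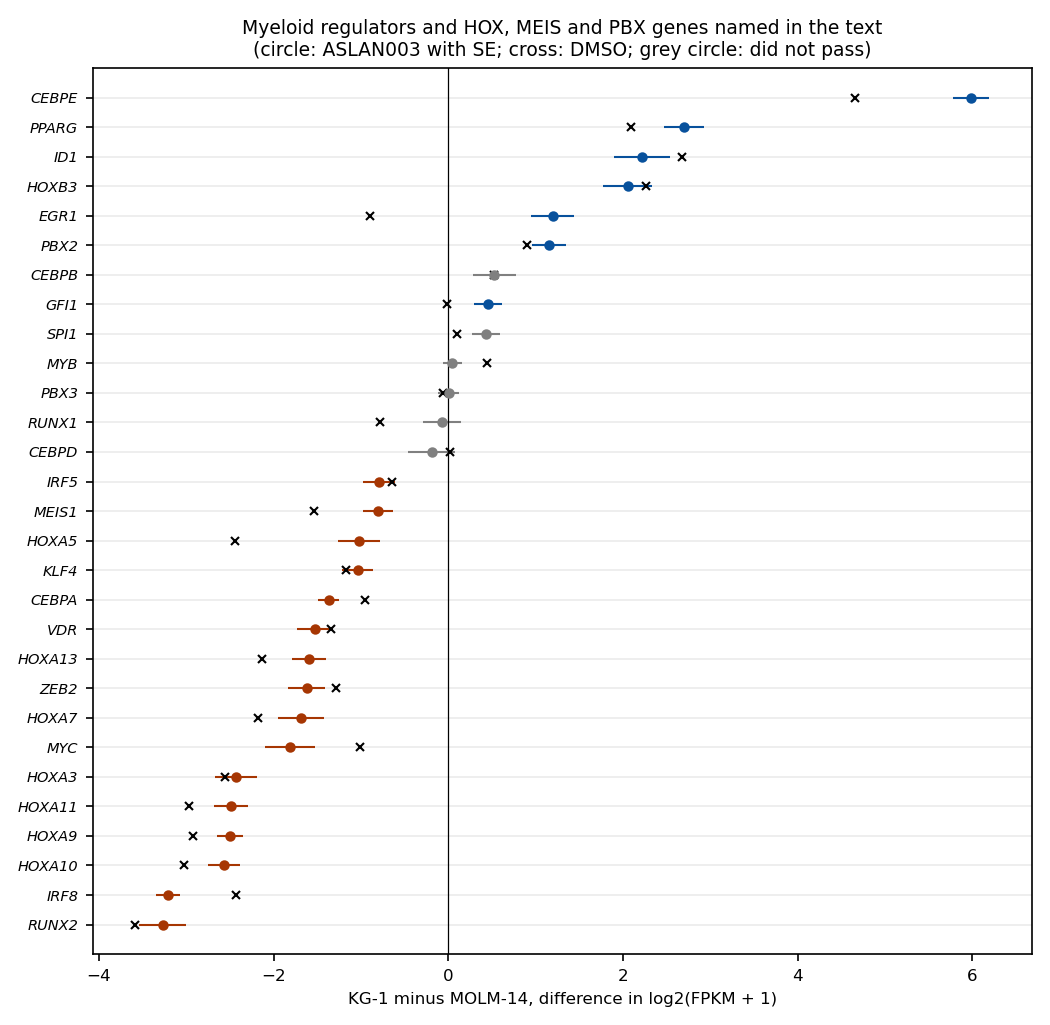
Difference between KG-1 and MOLM-14 in log2(FPKM + 1) for the tested myeloid regulator and HOX, MEIS or PBX genes named in the text, ordered by the difference under ASLAN003. Circles with bars give the ASLAN003 difference and its SE, blue where higher in KG-1 and brown where higher in MOLM-14, and grey where the test was not passed, and crosses give the DMSO difference. CEBPE is at the KG-1 end and RUNX2, IRF8 and HOXA10 are at the MOLM-14 end.

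Chemokine and cytokine genes were higher in KG-1 in 13 and in MOLM-14 in 4 of 23 tested (39 on the list), against 7 and 9 in DMSO. CCL2, the gene of a chemokine that draws monocytes, stood at 171, 140.1 and 270.5 FPKM in KG-1 and was listed at 0 in each MOLM-14 library (adjusted p = 5.27e-07), and in DMSO KG-1 had 3.78, 4.12 and 4.16 FPKM. CXCL8, the interleukin-8 gene that draws neutrophils, stood at 41.0, 45.6 and 44.5 FPKM in KG-1 and 2.06, 1.94 and 0.13 FPKM in MOLM-14 (difference 4.36 ± 0.36, adjusted p = 4.02e-05). CCL3 stood at 12.6, 11.6 and 16.9 FPKM in KG-1 and 0.73, 1.09 and 0.19 FPKM in MOLM-14 (difference 3.16 ± 0.27, adjusted p = 4.58e-05), with its near copy CCL3L3 at 3.81 ± 0.40, between which reads may be divided. CCL20 stood at 8.87, 7.19 and 7.56 FPKM in KG-1 and was listed at 0 in MOLM-14 (adjusted p = 1.12e-05).

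Cytokine and chemokine receptors lay on both sides, with 14 of 36 tested genes higher in KG-1 and 11 in MOLM-14, against 11 and 17 in DMSO. C5AR1, the receptor gene for the complement fragment C5a, stood at 11.2, 10.6 and 13.3 FPKM in KG-1 and was listed at 0 in MOLM-14 (adjusted p = 5.78e-06). C3AR1 stood at 28.7, 28.7 and 39.7 FPKM in KG-1 and 1.07, 0.57 and 0.7 FPKM in MOLM-14 (difference 4.22 ± 0.21, adjusted p = 3.89e-06). The interleukin-18 receptor genes IL18R1 and IL18RAP differed by 5.07 ± 0.23 and 4.10 ± 0.22 (adjusted p = 2.68e-06 and 4.99e-06). FGFR1 and FLT3 were higher in MOLM-14, with differences of -3.36 ± 0.14 and -1.73 ± 0.11 (adjusted p = 1.77e-06 and 1.07e-05). KIT, the stem cell factor receptor gene, did not reach the level for testing.

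Integrin and adhesion genes were higher in KG-1 in 17 and in MOLM-14 in 3 of 31 tested (42 on the list), against 15 and 6 in DMSO. The 4 largest differences of the list were those of ICAM3, at 267, 228 and 327 FPKM in KG-1 and 31.5, 26.9 and 27.4 FPKM in MOLM-14 (difference 3.2 ± 0.15, adjusted p = 3.19e-06), ADGRE3, an adhesion receptor gene of the EMR family (3.31 ± 0.27, adjusted p = 3.69e-05), ADGRG3 (3.16 ± 0.30, adjusted p = 8.71e-05) and ITGA6 (3.14 ± 0.30, adjusted p = 8.31e-05). ADGRE3 stood at 11.6, 8.94 and 15.2 FPKM in KG-1 and 0.25, 0.61 and 0.03 FPKM in MOLM-14, and no DMSO library exceeded 0.16 FPKM.

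Of 10 tested complement genes 6 were higher in KG-1 and 2 in MOLM-14, and of 15 eicosanoid genes 4 and 7. The complement counts in DMSO were 7 and 2, and the eicosanoid counts 3 and 10. C3, the central complement gene, stood at 79.5, 75.0 and 111 FPKM in KG-1 and 3.38, 4.44 and 4.26 FPKM in MOLM-14 (difference 4.14 ± 0.19, adjusted p = 2.79e-06), and CFP, the properdin gene, at 107, 86.0 and 153 FPKM in KG-1 and 15.1, 12.6 and 9.37 FPKM in MOLM-14 (difference 3.1 ± 0.24, adjusted p = 2.84e-05). CD93, a receptor gene of monocytes and early progenitors, was on the other side, at 0.34, 0.26 and 0.34 FPKM in KG-1 and 54.9, 40.9 and 42.0 FPKM in MOLM-14 (difference -5.15 ± 0.19, adjusted p = 9.39e-07). ALOX5, which starts leukotriene synthesis, stood at 101, 97.5 and 161 FPKM in KG-1 and 10.3, 1.75 and 2.37 FPKM in MOLM-14 (difference 4.65 ± 0.49, adjusted p = 0.00014, and 5.27 without MOLM-14 replicate 1), and TBXAS1, the thromboxane synthase gene, at 2.57, 1.91 and 1.64 FPKM in KG-1 and 30.1, 36.6 and 25.4 FPKM in MOLM-14 (difference -3.38 ± 0.21, adjusted p = 8.50e-06). Of 34 lysosomal genes, 15 were higher in KG-1 and 6 in MOLM-14, against 21 and 5 in DMSO. GRN, the progranulin gene, stood at 1350.2, 1130.5 and 1433 FPKM in KG-1 and 372, 224 and 219 FPKM in MOLM-14 (difference 2.30 ± 0.21, adjusted p = 7.03e-05), and CTSD, the cathepsin D gene, differed by 2.71 ± 0.20 (adjusted p = 1.94e-05). CST7, the gene of a cathepsin inhibitor, was higher in MOLM-14 (difference -4.22 ± 0.29, adjusted p = 1.43e-05).

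Among the genes with the largest differences under ASLAN003 were several that separated the lines by as much in DMSO. TKTL1, a transketolase-like gene, stood at 472, 502 and 522 FPKM in KG-1 and was listed at 0 in MOLM-14 in both treatments. GTSF1, SPARC, EDIL3, MEST and RAB32 differed by 7.50 ± 0.17, 6.87 ± 0.24, 6.51 ± 0.18, 6.60 ± 0.19 and 6.61 ± 0.17, and by 7.36, 7.0, 6.09, 7.08 and 6.38 in DMSO. On the MOLM-14 side, BARX1, a homeobox gene, stood at 0.14, 0.05 and 0 FPKM in KG-1 and 201, 203 and 175 FPKM in MOLM-14 (difference -7.51 ± 0.15, -7.09 in DMSO), LAMP5, a membrane protein gene of plasmacytoid dendritic cells, at 0.15, 0 and 0.35 FPKM in KG-1 and 129, 166 and 147 FPKM in MOLM-14 (difference -6.99 ± 0.18, -6.35 in DMSO), and PPP1R27 at 11.4, 9.70 and 12.3 FPKM in KG-1 and 1416, 1582 and 1467 FPKM in MOLM-14 (difference -6.95 ± 0.12, -7.28 in DMSO). Adjusted p was at most 7.0e-07 for these 8 genes under ASLAN003. DLK1, the gene of a Notch ligand homologue, stood at 83.8, 78.5 and 125 FPKM in KG-1 and was listed at 0 in MOLM-14 (adjusted p = 5.44e-07). AOC1, the diamine oxidase gene, stood at 183, 169 and 244 FPKM in KG-1 and 0.21, 0.28 and 0 FPKM in MOLM-14 (difference 7.41 ± 0.19, adjusted p = 1.56e-07), with 52.1 ± 4.91 FPKM in KG-1 DMSO. ANPEP (CD13), an aminopeptidase gene of myeloid cells, stood at 111, 106 and 210.3 FPKM in KG-1 and 0.39, 0.88 and 0.03 FPKM in MOLM-14 (difference 6.62 ± 0.31, adjusted p = 3.03e-06), with 3.94 in DMSO. GAS6, a ligand gene of the TAM receptors, stood at 3.18, 2.39 and 6.23 FPKM in KG-1 and 208, 177 and 169 FPKM in MOLM-14 (difference -5.31 ± 0.26, adjusted p = 3.57e-06), with 28.2 ± 3.31 and 168 ± 17.3 FPKM in DMSO.

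**Figure D5:**
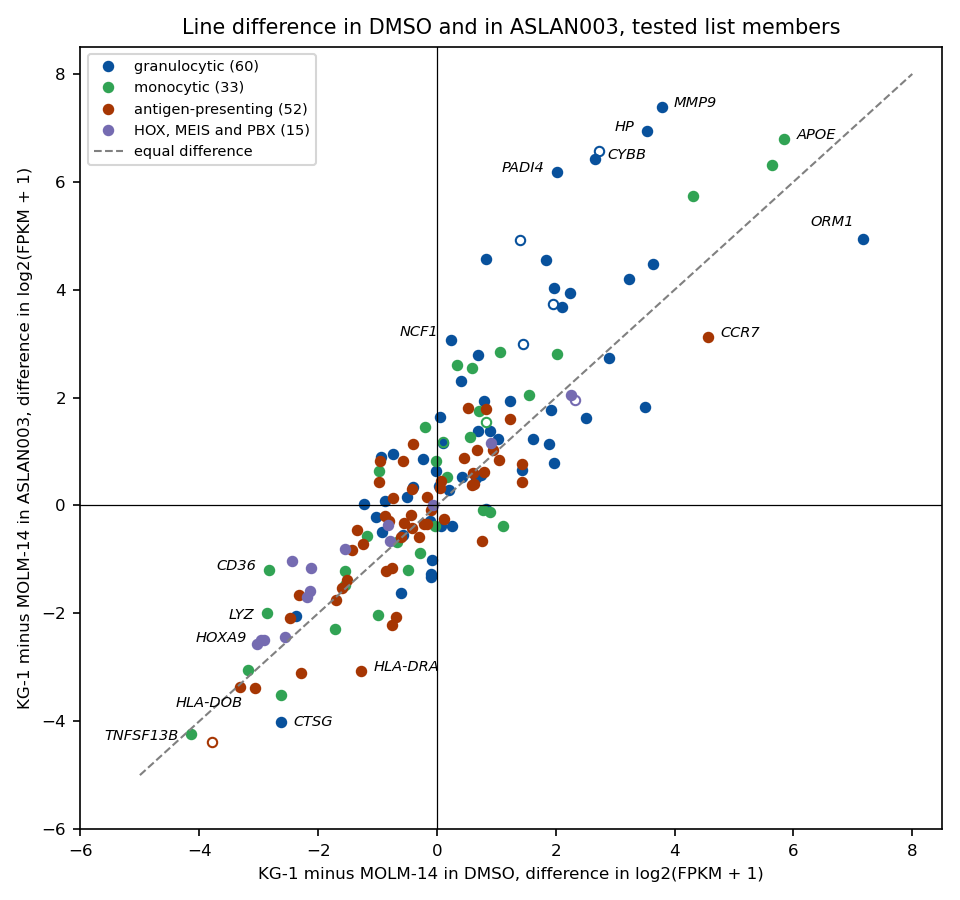
Difference between KG-1 and MOLM-14 in DMSO (horizontal) and in ASLAN003 (vertical), both in log2(FPKM + 1), for the tested granulocytic, monocytic, antigen-presenting and HOX list members, with 1 point per gene and open points where a group is listed at 0. The dashed line marks equal differences. MMP9, HP, CYBB, PADI4 and NCF1 lie above it, TNFSF13B lies close to it, and ORM1 and CCR7 lie below it.

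Growth, stress and nucleotide genes are given by their counts and a few members. Of 25 tested target genes of the tumour suppressor p53, 18 were higher in MOLM-14 and 0 in KG-1 (median -1.11). In DMSO the counts were also 18 and 0. CDKN1A, the gene of the cell-cycle inhibitor p21, stood at 60.4, 54.1 and 34.8 FPKM in KG-1 and 450.0, 334 and 280.2 FPKM in MOLM-14 (difference -2.82 ± 0.24, adjusted p = 4.38e-05), and it also differed in DMSO, by -3.33. DNA replication genes were higher in MOLM-14 in 12 and in KG-1 in 4 of 27 (2 without KG-1 replicate 1 or 2), led by MCM4, a helicase subunit gene, at 78.7, 77.2 and 76.0 FPKM in KG-1 and 272, 330.3 and 346 FPKM in MOLM-14 (difference -2.01 ± 0.13, adjusted p = 1.00e-05). In DMSO 11 of the 27 were higher in MOLM-14 and 8 in KG-1. Mitotic genes were higher in KG-1 in 8 and in MOLM-14 in 1 of 24, with CCNB1, the cyclin B1 gene, at 1.12 ± 0.24 (adjusted p = 0.00583). The mitotic counts rest on single libraries, with 3 and 1 without KG-1 replicate 1 or 2, 8 and 0 without KG-1 replicate 3, 4 and 1 without MOLM-14 replicate 2, and 3 and 3 without MOLM-14 replicate 3. In DMSO the mitotic counts were 15 and 1.

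DHODH, the target of the drug, stood at 8.72, 8.61 and 9.71 FPKM in KG-1 and 9.40, 12.7 and 19.6 FPKM in MOLM-14 and did not pass (difference -0.52 ± 0.25, adjusted p = 0.123). Of 24 tested pyrimidine genes, 7 were higher in MOLM-14 and 4 in KG-1, which is close to the background. Without KG-1 replicate 3 or MOLM-14 replicate 3 the counts were 4 and 3. The counts in DMSO were 7 and 7. CDA, the cytidine deaminase gene, stood at 70.5, 70.1 and 68.0 FPKM in KG-1 and 5.19, 0.86 and 1.70 FPKM in MOLM-14 (difference 4.49 ± 0.38, adjusted p = 4.47e-05), and UCK2, the uridine-cytidine kinase gene of salvage, at 35.0, 30.2 and 33.4 FPKM in KG-1 and 79.0, 87.6 and 81.0 FPKM in MOLM-14 (difference -1.30 ± 0.12, adjusted p = 7.34e-05). Of 84 ribosomal protein genes, 64 were higher in MOLM-14 and 0 in KG-1 (median -0.81, and -0.22 after quantile normalization), and their levels are uncertain where pseudogenes share reads. In DMSO 65 were higher in MOLM-14 and 7 in KG-1 (median -0.44). Serine and ATF4 target genes were higher in MOLM-14 in 13 and in KG-1 in 3 of 21, and TRIB3, a stress-induced pseudokinase gene, was the largest of the 3, at 88.5, 92.1 and 85.9 FPKM in KG-1 and 9.69, 14.9 and 11.7 FPKM in MOLM-14 (difference 2.80 ± 0.17, adjusted p = 7.75e-06). In DMSO 12 genes of this list were higher in MOLM-14 and 3 in KG-1. Cholesterol synthesis genes were higher in KG-1 in 20 and in MOLM-14 in 1 of 23 in DMSO, but in 2 and 4 of 23 under ASLAN003. The latter counts were 6 and 3 without MOLM-14 replicate 1, 3 and 2 without KG-1 replicate 1, and 2 and 7 without MOLM-14 replicate 3. EBP, a sterol isomerase gene, was 1 of the 2 higher in KG-1 with all libraries, by 1.36 ± 0.20 (adjusted p = 0.000766).

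Markers of other blood lineages were few above the filter. Of 28 lymphoid genes 4 were tested, CD79A and CD79B, the signalling chain genes of the B cell receptor, higher in KG-1 (differences 2.70 ± 0.23 and 1.38 ± 0.26) and NCAM1 (CD56) and NKG7 higher in MOLM-14 (-3.32 ± 0.19 and -1.22 ± 0.17), with adjusted p of at most 0.00317. The eosinophil granule protein genes PRG2 and EPX were the only 2 tested of 18 on the basophil, mast cell and eosinophil list. RNASE2 and RNASE3, also known from eosinophil granules, were counted in the azurophil list and did not lie on the KG-1 side. They differed by -1.26 and -0.38, and RNASE3 did not pass. PRG2 stood at 87.4, 116 and 266 FPKM in KG-1 and 16.4, 9.33 and 9.82 FPKM in MOLM-14 (difference 3.49 ± 0.39, adjusted p = 0.000194), and EPX at 2.54, 2.44 and 5.01 FPKM in KG-1 and 0.87, 0.3 and 0.57 FPKM in MOLM-14 (difference 1.42 ± 0.29, adjusted p = 0.00435). Of 31 erythroid and megakaryocyte genes 4 were tested, 3 higher in KG-1 and 1 in MOLM-14 (0 without KG-1 replicate 2 or 3), with GP1BB, a platelet glycoprotein gene, at 3.78 ± 0.75 (adjusted p = 0.00396) and at 4.81 without MOLM-14 replicate 2. Of 32 stem and progenitor genes 14 were tested, 4 higher in KG-1 and 3 in MOLM-14, which is close to the background. These counts were 6 and 5 without MOLM-14 replicate 1, 2 and 4 without MOLM-14 replicate 2, and 2 and 3 without MOLM-14 replicate 3 or KG-1 replicate 1 or 2. In DMSO they were 5 and 5. Of 30 tested interferon-stimulated genes 12 were higher in KG-1 and 5 in MOLM-14, from GBP5, a guanylate-binding protein gene, at 3.81 ± 0.23 (adjusted p = 8.32e-06) to TRIM22, an antiviral ubiquitin ligase gene, at -4.78 ± 0.23 (adjusted p = 3.03e-06). The interferon counts were 7 and 1 without KG-1 replicate 1, 8 and 3 without KG-1 replicate 2, 10 and 1 without KG-1 replicate 3, and 14 and 3 without MOLM-14 replicate 1. In DMSO they were 8 and 7.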

How the data were processed

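Total RNA of KG-1 and MOLM-14 cells was sequenced in 12 libraries with a stranded kit. The authors deposited 1 table of log2(FPKM + 1) for 13881 genes. The submitters' processing notes name RSEM 1.2.25 and STAR 2.4.2a, with bcl2fastq 2.17.1.14, and the build hg38 (GRCh38), but no annotation. RSEM can divide reads among near-identical genes, so such genes are uncertain. Gene symbols turned into dates were restored for 20 rows, and 13802 genes (99.4%) had an entry in GENCODE 29 (GRCh38), the source of printed gene coordinates. The FPKM values have steps of 0.01.

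Genes that reached 1 FPKM in 3 or more of the 6 ASLAN003 libraries were tested on log2(FPKM + 1), a pseudocount of 1, with limma 3.58.1 in R 4.3.3 (trend and robust estimation). KG-1 was compared with MOLM-14 over the 6 ASLAN003 libraries, over the 6 DMSO libraries, and as the change of the difference over all 12. Tests were two-sided and adjusted by Benjamini-Hochberg over 12975 genes, with 0.05 as the threshold. The scripts were tested on simulated data. Lists (33) are described by counts and medians, without a set test. Named genes are the 15 with the largest difference in each direction (at least 2-fold, at least 5 FPKM in the higher line, no overlap), the members of the granulocytic, monocytic, antigen-presenting and regulator lists, up to 5 of each other list, and 8 markers, and the text gives a selection of these. Some named genes are not reported here. The members and lists were chosen with earlier results of these data known. Replicate numbers were not used as pairs. Alternatives changed the pseudocount, filter, scale, moderation, libraries in the fit, library weights and replicate block, and left out each library in turn.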

Additional observations from a re-analysis of the deposited data

Results flagged for a closer look

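The difference between the lines was not the same under ASLAN003 and DMSO for 1338 of the 12975 genes (10.3%), as tested by the change of the difference over all 12 libraries with limma. It moved towards KG-1 for 679 genes (5.23%) and towards MOLM-14 for 659 (5.08%). Without MOLM-14 ASLAN003 replicate 1 the counts were 1198 and 1188, without KG-1 ASLAN003 replicate 1 they were 412 and 374, and without KG-1 DMSO replicate 1 they were 427 and 342. Of the 207 tested genes named here, 81 passed, 67 towards KG-1 and 14 towards MOLM-14, with adjusted p of at most 0.0459. Many of these genes were named for their difference under ASLAN003, which is itself a term of this change. Their counts therefore cannot be set against the shares over all genes, and they describe the named genes only. A value in what follows is that change in log2(FPKM + 1), positive towards KG-1, and for a gene with a group listed at 0 only the adjusted p is given. The change does not say in which line the level moved.

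Among granulocytic genes the change was 4.17 for PADI4, 3.76 for CYBB, 3.76 for FPR1, 3.61 for MMP9, 3.42 for HP, 2.83 for NCF1, 2.71 for CAMP, 2.10 for TNFRSF10C, 2.06 for S100A12 and 1.90 for MGAM. It was 1.85 for MMP25, 1.70 for QPCT, 1.56 for MNDA, 1.26 for NCF4, 1.09 for VAV1, 0.82 for CYBA, 0.74 for RAC2, 0.70 for HVCN1 and 0.66 for CTSC. Some genes of the granule and eosinophil lists moved towards MOLM-14. Their change was -1.17 for PTX3, -2.22 for ORM1, -1.67 for MS4A3, -0.79 for ELANE, -0.91 for CLEC11A, -1.01 for PRSS57, -1.17 for RNASE2 and -1.70 for EPX.

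For monocytic genes it was 1.95 for ITGAX, 1.78 for ITGAM, 2.26 for FCN1, 1.64 for CD36, 1.68 for FGR, 0.87 for LYZ, 0.71 for FCGR1A and 2.68 for ANPEP. Among inhibitory and pattern receptor genes the change was 2.21 for SIGLEC9, 1.94 for SIGLEC14, 2.02 for CD52, 1.39 for LILRA2, 2.61 for NLRP12 and 1.99 for NLRC4. Antigen-presentation genes lay on both sides, with 1.78 for NLRC5, 1.54 for IFI30, 1.40 for CD86, 1.39 for CTSS, 0.61 for SIRPA, -1.42 for HLA-DMA and -1.78 for HLA-DRA. The change for regulators and HOX genes was 2.09 for EGR1, 1.42 for HOXA5, 1.33 for CEBPE, -0.39 for MYB and -0.78 for IRF8. For chemokine, receptor, adhesion and complement genes it was 3.08 for CCL3L3, 2.58 for CCL3, 2.56 for CXCL8, 1.22 for IL18R1, 1.07 for IL18RAP, 1.33 for C3AR1, 0.66 for FLT3, 2.07 for C3, 1.37 for ICAM3, 1.24 for ADGRG3 and 1.70 for ITGA6. The other genes that passed changed by 1.78 for AOC1, 1.81 for TRIB3, 1.75 for CD79A, 1.66 for CD79B, 1.62 for GBP5, 0.98 for GRN, 0.89 for CTSD, -0.82 for UCK2 and -2.78 for GAS6. Genes with a group listed at 0 passed with an adjusted p of 1.55e-06 for CCL2, 0.000243 for FCAR, 2.21e-05 for C5AR1, 4.36e-06 for FPR2, 9.66e-06 for SIGLEC5, 0.000124 for ADGRE3, 0.00626 for ANXA3 and 0.0276 for CCL20. HLA-DRA and IRF8 thus moved further towards MOLM-14 under ASLAN003, and CYBB and CEBPE further towards KG-1. NCF1, whose difference in DMSO did not pass, also moved towards KG-1. The oxidase subunit genes CYBA, NCF4 and RAC2, higher in MOLM-14 in DMSO, passed in this test while their difference under ASLAN003 did not. The MOLM-14 ASLAN003 libraries lay further from one another than those of KG-1, and the part of that spread in the changes of single genes was not tested.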

How the results depend on the processing

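Of the 178 named genes that passed under ASLAN003, 167 passed under each of the 16 alternatives, 11 were lost without at least 1 library (named with their values in the report), 7 of these 11 also under another setting, and 0 changed direction. Of all 370 genes that met the rule for named genes, 284 passed, and 34 of these were lost without at least 1 library. Of the 207 tested genes named in the text, 29 did not pass, and 19 of these passed under at least 1 alternative. With a pseudocount of 0.1 the difference moved by over 1.5-fold for 60 of 169 called genes with no line at 0. Calls numbered 4309 to 6616 without 1 library, 7018 with all 12 libraries in 1 fit and 5515 with the replicate block. The deviations of same-numbered ASLAN003 libraries correlated at -0.023, -0.0016 and -0.098, and 0 of 3 KG-1 libraries correlated best with its own number. In DMSO they correlated at 0.053, 0.025 and 0.099, and KG-1 replicates 2 and 3 correlated best with their own number. The numbers were not taken as pairs. Whether they pair the DMSO and ASLAN003 libraries of a line was not tested. With the replicate block the change counts were 639 towards KG-1 and 579 towards MOLM-14. The change counts with libraries weighted by spread were 1146 and 1109, and from 412 to 1198 (KG-1 side) and 342 to 1188 (MOLM-14 side) without 1 library. The cause was not tested.

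Medians of 5 lists changed sign. Without the filter the stem cell list was at 0.073 and the lymphoid list at -0.037, and the latter at -1.22 with a mean of at least 5 FPKM and at -0.16 after quantile normalization. The monocyte list was at 0.13 with weights. Without 1 library each, the ranges were -0.21 to 0.30 (monocyte), -0.024 to 0.18 (lymphoid), -0.10 to 0.045 (eicosanoid) and -0.26 to 0.13 (cholesterol). Other medians kept their sign but shrank without the filter. They went from 2.75 to 1.45 (specific and gelatinase granules), 1.23 to 0.50 (S100), 0.34 to 0.10 (azurophil granules) and -1.02 to -0.66 (HOX). The complement median went from 1.64 to 0.51 and that of basophil, mast cell and eosinophil genes from 2.46 to 0.15. The late neutrophil median stayed at 2.30.

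Genes that did not pass changed sign as well. PBX3 was at -0.023 with medians centred, -0.023 without bulky genes and -0.044 with weights, AZU1 at 0.15 and NCF4 at -0.00026 after quantile normalization, NCF4 at -1.05e-05 without bulky genes, and CSF1R at 0.13, MYB at -0.0072 and RUNX1 at 0.11 with weights. Without 1 library the ranges were -0.38 to 0.15 (CEBPD), -0.37 to 0.30 (CSF1R), -0.16 to 0.35 (NCF4), -0.029 to 0.061 (PBX3) and -0.23 to 0.18 (RUNX1). At 17950000 to 18750000 fragments, values near 0 FPKM rest on few fragments.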
